A study of Mus musculus with 25 samples.

Results

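Mesothelial genes were examined in the white fat of mice, as the 8 rows of the count tables that carry the symbols Msln, Upk3b, Upk1b, Wt1, Lrrn4, Gpm6a, Cldn15 and Muc16, out of 54752 genes in all. The symbols were listed for their known place in mesothelium, and no value of these libraries enters the rule, although the list was drawn up with earlier results of these data known. RNA was sequenced from epididymal white adipose tissue (eWAT), the visceral depot, and from inguinal white adipose tissue (iWAT), the subcutaneous depot, of male C57BL/6N mice. Wild type (WT) mice were fed a normal chow diet (ND), for 16 weeks and gave 4 eWAT and 3 iWAT libraries. WT mice on a high-fat diet (HFD, with 60% of its calories from fat) were fed it for 16 weeks and gave 5 libraries of each depot. HFD-fed Acod1-/- mice, which lack throughout the body the enzyme that makes itaconate, gave 5 eWAT and 3 iWAT libraries, and the labels of iWAT libraries 2 and 3 of that group give 17 and 18 weeks. By the methods, both diets began at 5 weeks of age, when the mice were caged singly. The HFD-fed WT and Acod1-/- mice were littermates, and Acod1-/- mice on ND are not among the groups compared.

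The mesothelium is the single sheet of flat epithelial cells that covers the organs and lines the walls of the body cavities. Visceral fat pads such as eWAT hang inside the peritoneal cavity and carry this sheet on their surface, whereas the inguinal pad lies under the skin and has no serosal surface. Of the 8 genes, Msln encodes mesothelin, a surface protein anchored to the membrane by a lipid, and Muc16 encodes the large membrane mucin (known as CA125) that binds it. Upk3b and Upk1b encode uroplakins, membrane proteins best known from the surface of the bladder. Wt1 encodes a zinc-finger transcription factor of mesothelium, kidney and gonad. Lrrn4 encodes a leucine-rich repeat membrane protein, Gpm6a a membrane glycoprotein first known from neurons, and Cldn15 a claudin of tight junctions that is abundant in intestinal epithelium.

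The libraries each held between 31405063 and 52335623 reads counted in genes. Acod1 itself had 0 to 9 reads in every library, the WT ones included, so that its level could not check the genotype labels. The library numbers in the file headers fall into 2 ranges. All 7 ND libraries and 4 of the HFD libraries belong to the second range, and the other 14 HFD libraries to the first, so diet and range are largely confounded. What the ranges stand for is not given in the sources used here. Transcripts of the epididymis, the sperm duct to which this pad is attached, summed over 10 genes to 8650 counts per 1000000 reads (CPM) in eWAT WT ND library 2. Their sum was 1090 and 476 CPM in eWAT Acod1-/- HFD libraries 5 and 1, 113 CPM in eWAT WT HFD library 5, and at most 84.8 CPM elsewhere. Adipocyte markers were abundant in every library of both depots (20829 to 53329 CPM over 10 genes). Between the depots on ND, 4 of the 10 macrophage and 4 of the 10 epididymis genes were called higher in eWAT. So were 4 of 7 endothelial and 2 of 10 adipocyte genes. Of 4 smooth muscle genes 3 were higher and 1 lower, and of 10 fibroblast and progenitor genes 3 were higher and 1 lower. Of 7 skin and mammary epithelium genes 0 were called. Among all genes tested, 18.3% were called higher and 14.1% lower. The part of these markers in the depot differences was not tested.

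All 8 genes passed the filter of a mean of at least 1 CPM in eWAT, and 2 of the 8 (Cldn15 and Gpm6a) passed it in iWAT. In eWAT the level per transcript length, in FPKM (fragments per kilobase of transcript per 1000000 reads, mean over 14 libraries), was highest for Cldn15 at 22 FPKM. Msln followed at 8.08 FPKM, Upk3b at 7.48 FPKM, Upk1b at 4.89 FPKM and Gpm6a at 4.48 FPKM. Lrrn4 had 1.95 FPKM, Wt1 1.43 FPKM and Muc16 0.113 FPKM. Thus the claudin was the most abundant and the mucin, which has by far the longest transcript of the set, the least.

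Promoter windows (250 bases before to 50 after a start site, RefSeq on GRCm38.p6) are shown for the members that lead this order and have an entry in the promoter table, Cldn15 and Upk3b. Both genes lie on the plus strand of chromosome 5, with 920 kb between the end of Upk3b and the start of Cldn15 in GENCODE (chr5:136038496-136046487 and chr5:136966616-136975858). Capitals mark the hexamer GGAATG of TEAD-type sites wherever it stands on either strand (on the minus strand it reads CATTCC here).
Upk3b (chr5:136038246-136038545): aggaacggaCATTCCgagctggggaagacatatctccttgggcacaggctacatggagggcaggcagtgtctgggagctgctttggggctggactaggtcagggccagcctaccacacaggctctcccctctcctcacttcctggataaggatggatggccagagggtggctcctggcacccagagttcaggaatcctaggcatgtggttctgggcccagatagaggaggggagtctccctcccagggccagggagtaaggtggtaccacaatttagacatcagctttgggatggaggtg
Cldn15 (chr5:136967619-136967918): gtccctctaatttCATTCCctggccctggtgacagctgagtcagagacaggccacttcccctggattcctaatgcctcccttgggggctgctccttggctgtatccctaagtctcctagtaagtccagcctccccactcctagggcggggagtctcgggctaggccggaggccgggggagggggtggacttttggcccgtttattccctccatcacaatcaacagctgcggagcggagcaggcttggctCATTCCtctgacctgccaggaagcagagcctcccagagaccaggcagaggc

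The hexamer occurred 1 time in the Upk3b window and 2 times in the Cldn15 window. It also occurred 1 time in the Lrrn4 window and 1 time in the upstream of the 2 Gpm6a windows, and was found in neither the downstream Gpm6a window nor that of Muc16. Of all 32851 windows in the table, 14.7% held it. The WT1- and EGR-type motif GCGTGGG, held by 5.04% of all windows, was in none of the 6 windows of the members on either strand. The same was true of the GATA-type motif, the letters AGATAA, which 11.2% of all windows hold. Of the 3 motifs, only the TEAD-type hexamer occurred in these windows. Msln, Upk1b and Wt1 have no entry in the promoter table.

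The first comparison was between the depots, in mice of the same genotype and diet. In WT mice on ND, all 8 genes were higher in eWAT than in iWAT (edgeR quasi-likelihood test, Benjamini-Hochberg adjusted p under 0.1), where 18.3% of the 15609 genes tested were called higher and 32.4% in either direction. Of the 8, 6 genes passed the filter through eWAT alone and therefore had to differ, so that the count over the members is a description. The median of the members' log2 ratios of pooled CPM was 5.81. Their median fitted log2 fold change was 5.85, against 0.03 over all genes tested. Whether iWAT held fewer mesothelial cells or less of these RNAs per cell cannot be told apart in bulk tissue, and the same holds for every level given here.

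Msln had 29.8, 15.2, 16.6 and 12.6 CPM in the 4 eWAT libraries of ND-fed WT mice. In iWAT of the same group a single Msln read was counted in library 1 and none in libraries 2 and 3. The ratio of pooled CPM was 2502 (95% counting interval 449 to 98853), and edgeR gave an adjusted p of 3.55e-07. Over all 11 iWAT libraries Msln was at 0 in 8, and its highest count was 5 reads, in Acod1-/- HFD library 2. Wt1 behaved alike in that no iWAT library held more than 2 of its reads, whereas eWAT libraries ranged from 6.07 to 18.3 CPM. The pooled ratio for Wt1 on ND was 421 (95% counting interval 144 to 2044), with an adjusted p of 3.46e-07.

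Upk3b had 46.9, 29.7, 23.0 and 32.2 CPM in eWAT of ND-fed WT mice, and 0.255, 0 and 0 CPM in iWAT. The pooled ratio was 407 and the adjusted p was 1.33e-05. The highest iWAT value of Upk3b was 0.829 CPM (26 reads), in the same Acod1-/- HFD library 2 that held most of the Msln reads of this depot. That library also had the highest sum of skin and mammary epithelium markers of any library (837 CPM over 7 genes), and the part of this in the Upk3b reads was not tested. Upk1b had 6.42 to 12.9 CPM in eWAT of ND-fed mice and 0.0194 to 0.0929 CPM in iWAT, and the pooled ratio was 170 with an adjusted p of 9.69e-06. In Acod1-/- mice on HFD no Upk1b read was counted in iWAT, which makes the ratio there at least 446-fold when 3 reads are allowed over the group. The other uroplakins were scarce in both depots. Upk2 had at most 1 read and Upk3a at most 3 reads in any library, and Upk1a had a median of 0.473 CPM in eWAT and 0.542 CPM in iWAT of ND-fed mice, with a single high value of 9.70 CPM in the eWAT library rich in epididymis transcripts.

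Muc16 had 3.64, 3.01, 2.46 and 3.60 CPM in eWAT of ND-fed WT mice. In iWAT of the same group, 23 reads (0.445 CPM) were counted in library 2 and none in libraries 1 and 3. Across the 8 HFD libraries of iWAT a single Muc16 read was found. The pooled ratio was 18.5 on ND and 455 in WT mice on HFD (95% counting interval 81.2 to 18001), and the Acod1-/- group, with no read in iWAT, gave at least 140-fold. The ND ratio of 18.5 therefore rests on 1 iWAT library.

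Lrrn4 and Gpm6a were clearly detected in iWAT, though at lower levels. Lrrn4 had 12.6, 7.89, 6.29 and 9.36 CPM in eWAT and 2.65, 0.561 and 1.64 CPM in iWAT of ND-fed mice. Its log2 fold change between the depots was 2.48 ± 0.72 (SE, adjusted p = 0.0146 by edgeR). Gpm6a had 28.6, 14.6, 11.6 and 14.4 CPM in eWAT and 3, 3.35 and 2.14 CPM in iWAT, a log2 fold change of 2.61 ± 0.50 (SE, adjusted p = 0.000733 by edgeR). For 7 of the 8 genes, every one of the 14 eWAT libraries lay above every one of the 11 iWAT libraries, a separation seen in 0.308% of the genes tested. All of these but Gpm6a passed the filter through eWAT alone, so that this separation too is a description. The narrowest of these gaps was that of Lrrn4, whose lowest eWAT library had 3.13 CPM and whose highest iWAT library had 2.65 CPM.

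**Figure D1:**
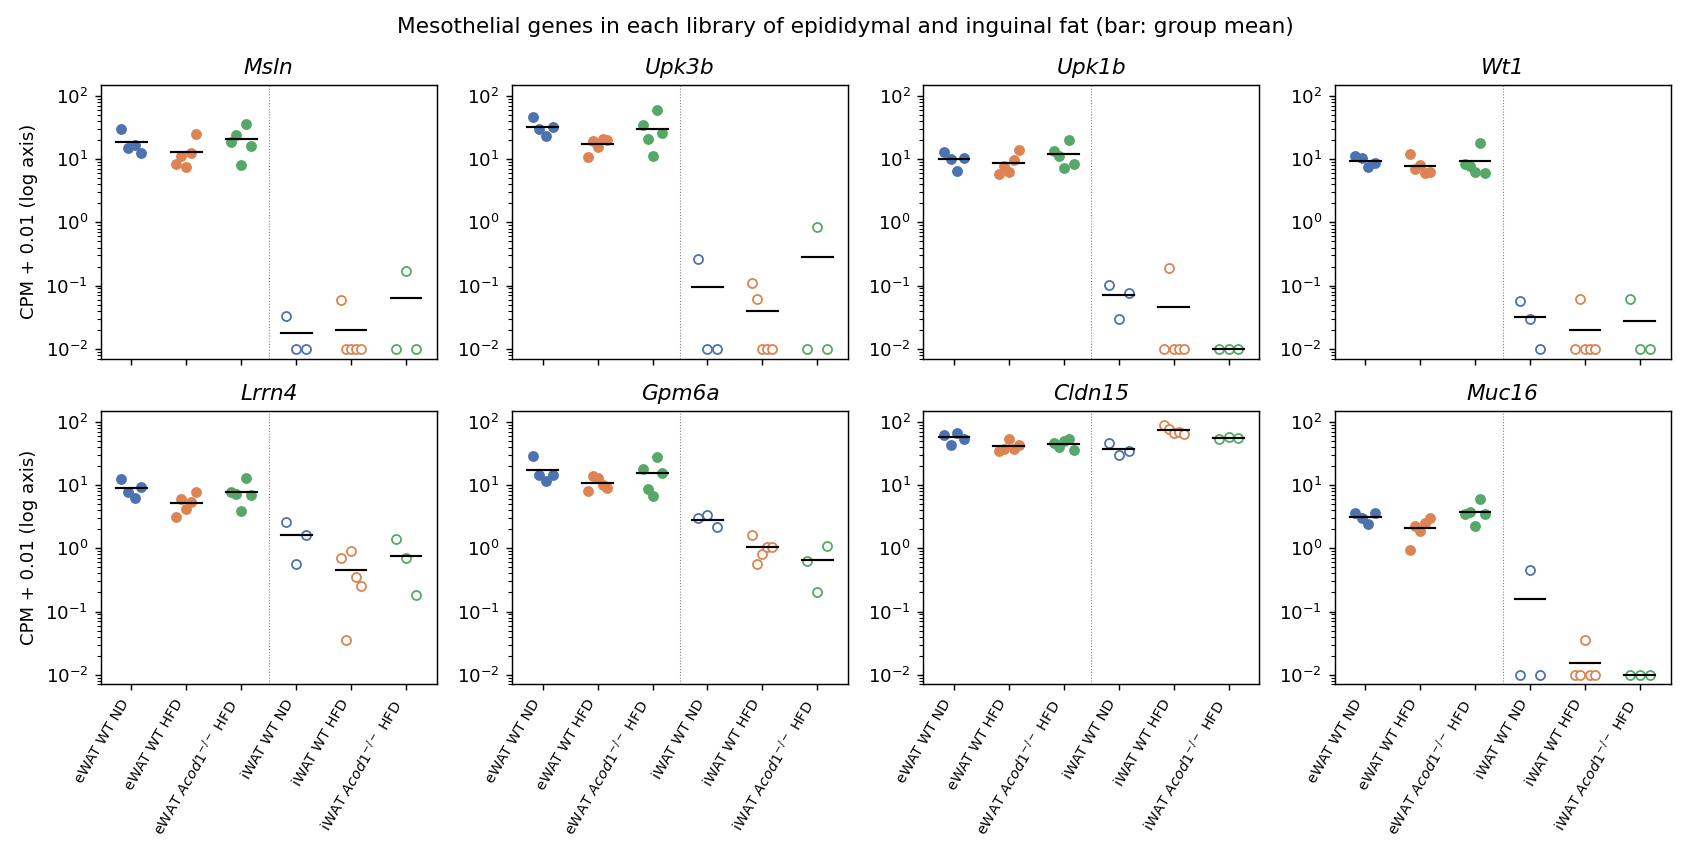
Level of the 8 genes in each of the 25 libraries (CPM plus 0.01 on a log axis, so that a library without reads sits at 0.01), by depot, genotype and diet, with a bar at the group mean. In 7 panels all eWAT libraries (filled) lie above all iWAT libraries (open), whereas the Cldn15 libraries of both depots lie between 30.0 and 88.9 CPM.

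In WT mice on HFD the same 7 genes were again called higher in eWAT and Cldn15 was called lower, where 11.3% and 7.02% of all genes tested were called in these directions. In the Acod1-/- group on HFD the 7 genes were called higher and Cldn15 was not called, with backgrounds of 2.25% higher and 1.97% lower. In these 2 conditions the log2 fold changes of Gpm6a were 3.40 ± 0.42 and 4.59 ± 0.56 (SE, adjusted p = 4.13e-05 and 3.58e-05 by edgeR), and those of Lrrn4 were 3.57 ± 0.61 and 3.37 ± 0.75 (SE, adjusted p = 0.000827 and 0.0173). Msln, Upk3b, Upk1b, Wt1 and Muc16 had adjusted p-values between 3.87e-08 and 0.000729 in the 2 conditions. These genes and Lrrn4 passed the filter through eWAT alone, so that here, as on ND, the counts and p-values are a description.

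Cldn15 was the exception to the depot pattern. It had 62.6, 43, 67.2 and 54.4 CPM in eWAT of ND-fed WT mice and 45.8, 30.0 and 34.1 CPM in iWAT, and the groups overlapped at 1 library on each side. The fitted log2 fold change was 0.63 ± 0.18 (SE, adjusted p = 0.013 by edgeR) in favor of eWAT. On HFD, WT mice had 35, 37.4, 54.0, 37.6 and 42.7 CPM in eWAT and 88.9, 78.0, 65.7, 68.5 and 65.1 CPM in iWAT. There the groups did not overlap and the sign had turned, with a log2 fold change of -0.82 ± 0.15 (SE, adjusted p = 0.00117 by edgeR). Groups that do not overlap in this direction were seen in 4.47% of the genes tested. HFD-fed Acod1-/- mice stood between these states, with 46.4, 40.6, 49.9, 53.5 and 35.6 CPM in eWAT and 54.0, 57.8 and 56.7 CPM in iWAT and a log2 fold change of -0.31 ± 0.17 (SE, adjusted p = 0.40 by edgeR). Their libraries did not overlap either, which held for 2.63% of the genes in this direction.

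Taken by depot, the response of Cldn15 to HFD went in opposite directions. In iWAT the gene rose in WT mice on HFD, by a log2 fold change of 1.02 ± 0.15 (SE, adjusted p = 0.000574 by edgeR), and every HFD library lay above every ND library, as did 23.6% of the genes tested. Of the 14801 genes tested in iWAT, 50.1% were called, 25.9% higher and 24.2% lower. Markers of other cell types also moved in iWAT on HFD. All 7 endothelial genes rose (501 to 681 CPM summed on ND, 699 to 1093 CPM on HFD), as did 8 of 10 fibroblast and progenitor genes (1042 to 1630 and 2777 to 5193 CPM), with 1 lower. Of 10 macrophage genes 8 rose (498 to 600 and 681 to 1668 CPM), and of 10 adipocyte genes 4 rose and 1 fell (30170 to 37226 and 42099 to 53329 CPM). The part of these in the value of Cldn15 was not tested. In eWAT it fell, by 0.48 on the log2 scale (SE 0.17, adjusted p = 0.0356 by edgeR). The difference between these effects, tested as the interaction of diet and depot over all 25 libraries, was -1.46 ± 0.23 (SE, adjusted p = 0.000157 by edgeR). Of all genes, 28.7% had an interaction at this threshold (14.2% of all genes positive and 14.5% of all genes negative). All 7 endothelial genes were called with a negative interaction (median -1.51). So were 5 of 10 adipocyte, 3 of 4 smooth muscle and 2 of 10 fibroblast and progenitor genes. A positive interaction was called for 3 of 10 macrophage genes, 1 smooth muscle gene and 1 fibroblast and progenitor gene. The part of these in the interaction of Cldn15 was not tested. In iWAT of Acod1-/- mice on HFD, Cldn15 was higher than in ND-fed WT mice (log2 fold change 0.61 ± 0.17, SE, adjusted p = 0.0201 by edgeR). It was 0.41 lower on the log2 scale than in HFD-fed WT mice, with a 95% interval from -0.74 to -0.08 and an adjusted p of 0.21, so that the call was not made, although the libraries of the 2 groups did not overlap (in this direction, 4.49% of genes). No gene of the 14801 was called in that comparison (0% of those tested).

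Gpm6a went down in iWAT on HFD. WT mice on HFD had 1.64, 0.559, 0.806, 1.05 and 1.05 CPM and HFD-fed Acod1-/- mice 0.613, 0.191 and 1.10 CPM, all below the 3 ND libraries. Such separation from ND was found in 23.6% of genes for the WT and in 18.4% for the Acod1-/- mice. The log2 fold change against ND was -1.44 ± 0.49 (SE, adjusted p = 0.037 by edgeR) in WT mice and -2.13 ± 0.59 (SE, adjusted p = 0.0222 by edgeR) in Acod1-/- mice, and 34.6% of all genes were called in the latter comparison (18.5% higher and 16.1% lower). Between HFD-fed Acod1-/- and WT mice Gpm6a did not pass the test in iWAT (log2 fold change -0.69, 95% interval -1.85 to 0.47, adjusted p = 0.55 by edgeR). The difference of its diet response between the depots did not pass either (0.79 ± 0.60, SE, adjusted p = 0.38). All 3 ND libraries of iWAT belong to the second range of library numbers, as does 1 of the 5 WT libraries on HFD. Diet and range are thus largely confounded in iWAT as well. The call of Gpm6a in the WT diet comparison was lost with the range as a term in the fit. It was also lost with the number in the label as a replicate block, and without iWAT WT ND library 2. Cldn15 kept its call in this comparison under every alternative (adjusted p of 0.00779 or less). In iWAT the other 6 genes were below the filter and were not tested within the depot.

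**Figure D2:**
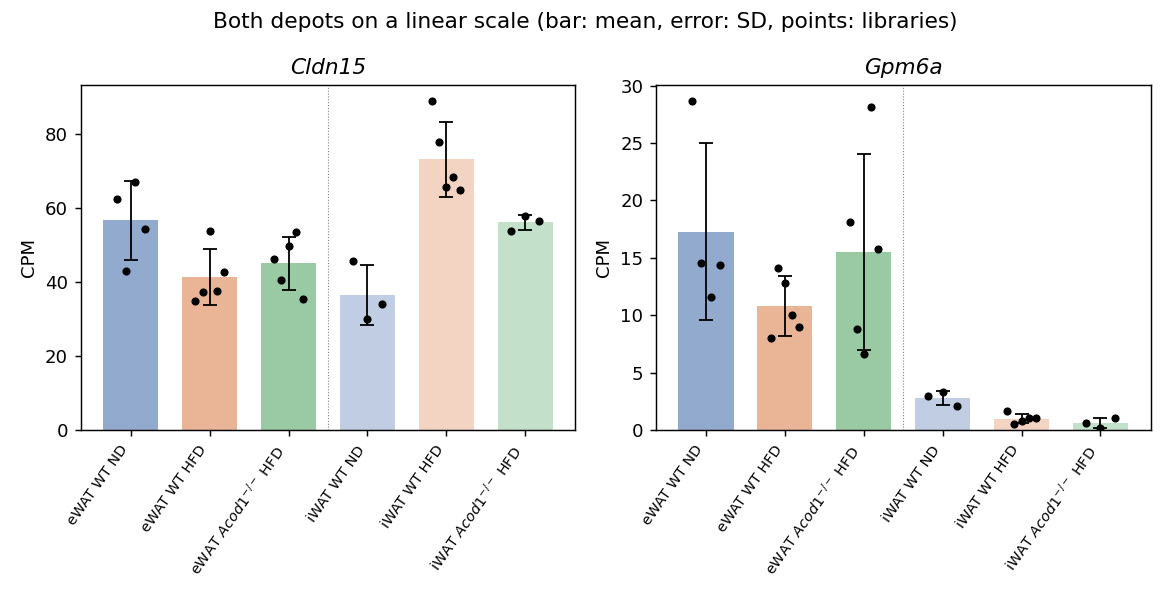
CPM of Cldn15 and Gpm6a, the only members that passed the filter in both depots, by group on a linear axis from 0 (bar, mean; error bar, SD; points, libraries). Cldn15 averaged 56.8 CPM on ND and 41.4 CPM on HFD in eWAT of WT mice, and 36.6 and 73.2 CPM in iWAT. The mean of Gpm6a was lower on HFD in both depots, a difference that was called in iWAT and not in eWAT.

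Within eWAT, the fitted log2 fold changes of all 8 genes were negative when HFD-fed WT mice were compared with ND-fed WT mice, with a median of -0.57 against -0.04 over the 14936 genes tested. The test was passed by 3 of the 8 genes, all of them lower on HFD, where 26.9% of all genes were called lower and 51.8% in either direction. This share was near that of all genes and is not a result about the members as a set. Upk3b had 10.7, 19.6, 15.7, 20.6 and 20.1 CPM on HFD, all below the ND libraries (46.9, 29.7, 23.0 and 32.2 CPM), a separation found in 17.0% of all genes. It fell by 0.95 on the log2 scale (SE 0.37, adjusted p = 0.0538 by edgeR). Lrrn4 had 3.13, 5.97, 4.11, 5.44 and 7.79 CPM on HFD against 6.29 to 12.6 CPM on ND, with overlap of the highest HFD and the lowest ND library, and fell by 0.79 (SE 0.33, adjusted p = 0.0694 by edgeR). Cldn15, described above, was the third.

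The remaining genes did not pass. Msln had 8.40, 11.3, 7.51, 12.3 and 24.9 CPM on HFD, where 4 libraries lay below all ND libraries and library 5 lay below the highest ND library alone (log2 fold change -0.54, 95% interval -1.45 to 0.36, adjusted p = 0.31 by edgeR). Gpm6a had 8.04 to 14.1 CPM on HFD and 11.6 to 28.6 CPM on ND (-0.70, 95% interval -1.50 to 0.10, adjusted p = 0.14). Muc16 had 0.939, 2.24, 1.86, 2.54 and 3.05 CPM on HFD (-0.59, 95% interval -1.33 to 0.14, adjusted p = 0.18). The intervals of Upk1b (-0.92 to 0.49) and of Wt1 (-0.95 to 0.40) reached furthest above 0 in the set, and neither gene was called (adjusted p = 0.62 and 0.50 by edgeR).

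All 4 ND libraries of eWAT belong to the second range of library numbers, as does a single HFD-fed WT library, number 5, so no test could be run within a range. That library had 20.1 CPM of Upk3b and 42.7 CPM of Cldn15, each below the lowest ND library (23 and 43 CPM). Its Lrrn4 (7.79 CPM), Msln (24.9 CPM) and Muc16 (3.05 CPM) lay within the ND range, and its Upk1b (14 CPM) lay above it. Its Wt1 (6.20 CPM) and Gpm6a (9 CPM) were also below the lowest ND library, so that 4 of the 8 genes were. With the range as a term in the fit, Cldn15 alone kept its call. The value of Upk3b was then -0.95, as without the term (adjusted p = 0.21 by edgeR), and that of Lrrn4 was -0.56 (adjusted p = 0.39). Without eWAT WT ND library 1 or without WT HFD library 1, Cldn15 was also the only gene called. The marker genes of other cell types moved in the same comparison. All 10 macrophage genes rose (median log2 fold change 2.29, summed level 541 to 974 CPM on ND and 2235 to 6781 CPM on HFD), and 6 of 7 endothelial genes fell (median -0.69). Of 10 adipocyte genes, 5 fell and 1 rose (median -0.55). Of 10 fibroblast and progenitor genes 7 rose (median 0.75, 1929 to 2447 CPM on ND and 3242 to 6070 CPM on HFD). Of 4 smooth muscle genes 2 fell (median summed level 324 CPM on ND and 188 CPM on HFD), as did 6 of 7 skin and mammary epithelium genes and 3 of 10 epididymis genes. The part of these in the members' fold changes was not tested.

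When HFD-fed Acod1-/- mice were compared with HFD-fed WT mice in eWAT, all 8 fitted log2 fold changes were positive, with a median of 0.55 against 0.04 over all genes, and none passed the test. By edgeR 2 of the 8 had an unadjusted p under 0.05, and edgeR called 19.9% of all genes (9.13% higher and 10.8% lower). DESeq2 called 2 of the 8, and its own share of all genes was not counted. Both comparisons share the HFD-fed WT libraries, so that opposite signs in the 2 are not independent of each other. Muc16 had 3.48, 3.70, 2.23, 6.11 and 3.52 CPM in Acod1-/- mice, and 4 of these lay above all 5 WT libraries on HFD (log2 fold change 0.85 ± 0.33, SE, adjusted p = 0.103 by edgeR). Upk3b had 34.3, 20.8, 11.3, 59.6 and 25.6 CPM, likewise with 4 libraries above all 5 of the WT mice (0.82 ± 0.35, SE, adjusted p = 0.143). DESeq2's Wald test called these 2 genes, with adjusted p-values of 0.0625 and 0.0857.

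Msln had 18.5, 23.8, 7.96, 36.4 and 16.1 CPM in the Acod1-/- mice on HFD (log2 fold change 0.68, 95% interval -0.18 to 1.54, adjusted p = 0.28 by edgeR). It was called when only the first range of library numbers was used, with 4 libraries in each group (1.14, adjusted p = 0.0711), as was Upk1b (0.83, adjusted p = 0.0974). Lrrn4, Gpm6a and Upk1b had intervals of -0.11 to 1.25, -0.23 to 1.29 and -0.18 to 1.16 in the fit of all eWAT libraries. Those of Wt1 and Cldn15 were -0.37 to 0.91 and -0.20 to 0.48, the latter the narrowest of the set. All 10 macrophage genes fell in this comparison (median -1.81), with sums of 567 to 1928 CPM in Acod1-/- mice, and 5 of 10 adipocyte genes rose (median 0.54). Of 10 fibroblast and progenitor genes 6 fell (median -0.64, 1873 to 3476 CPM in Acod1-/- mice). Of the 10 epididymis genes, 5 also rose. Without Acod1-/- HFD library 4, which was high for most of the members, the values of Msln, Upk3b and Upk1b came down to 0.38, 0.43 and 0.23, and that of Wt1 to -0.12. Without the 4 eWAT libraries with over 100 CPM of epididymis transcripts, 1 member was called, Msln (1.21, adjusted p = 0.0785).

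Against ND-fed WT mice, HFD-fed Acod1-/- mice showed no called difference in eWAT. The fitted log2 fold changes ran from -0.33 for Cldn15 (95% interval -0.70 to 0.03) to 0.28 for Upk1b (-0.43 to 0.98), with a median of -0.07. No member had an unadjusted p under 0.05, and neither edgeR nor DESeq2 called any, whereas edgeR called 26.5% of all genes (13.5% higher and 13% lower). Thus for Upk3b the group means were ordered as 33 ± 10.1 CPM on ND (SD, n = 4), 30.3 ± 18.4 CPM in Acod1-/- on HFD (SD, n = 5) and 17.3 ± 4.19 CPM in WT on HFD (SD, n = 5), and the first and last of these differed by the test while their neighbours in the order did not pass. The same order held for Lrrn4 (9.05 ± 2.71, 7.81 ± 3.28 and 5.29 ± 1.79 CPM) and for Cldn15 (56.8 ± 10.6, 45.2 ± 7.17 and 41.4 ± 7.60 CPM). Whether the genotype effect differed between the depots was tested as an interaction, and no member was called (0.00641% of all genes were). By edgeR 2 members had an unadjusted p under 0.05, and DESeq2 called none. For Cldn15 the interaction was 0.51 ± 0.22 (SE, adjusted p = 0.44 by edgeR).

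**Figure D3:**
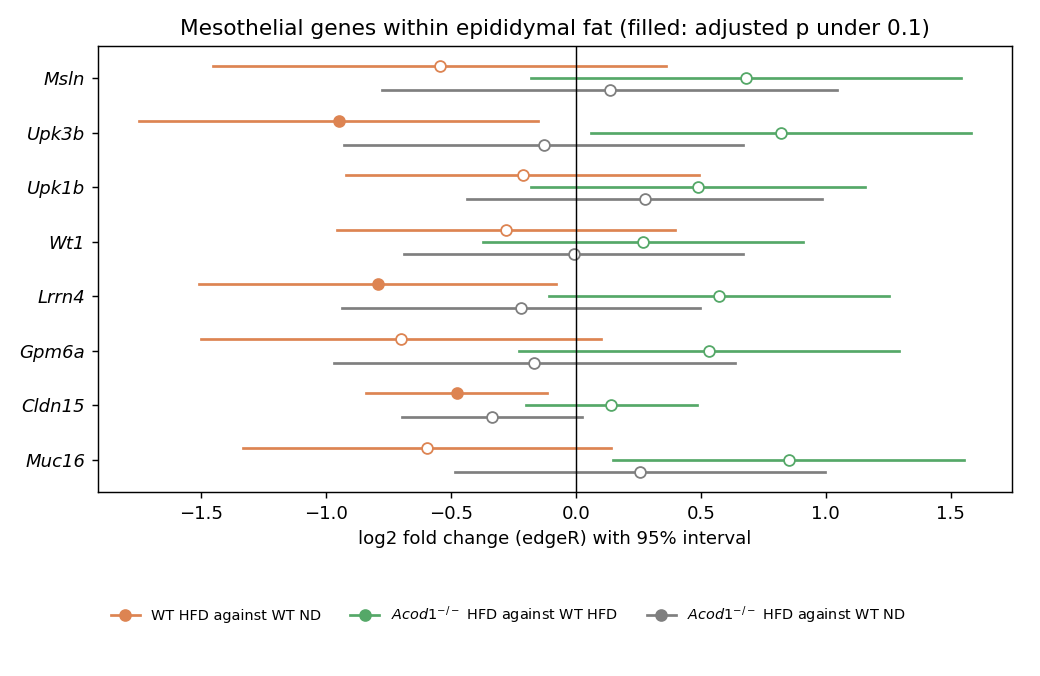
Log2 fold changes of the 8 genes in eWAT with 95% intervals from edgeR, for the 3 pairs of groups (filled points, adjusted p under 0.1). Points of WT HFD against WT ND lie left of 0 for all 8 genes, those of Acod1-/- HFD against WT HFD right of 0, and the 3 filled points are Upk3b, Lrrn4 and Cldn15 in the former.

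The members also varied from mouse to mouse within a group. In eWAT of HFD-fed Acod1-/- mice the highest library exceeded the lowest by 5.29-fold for Upk3b, 4.57-fold for Msln and 4.22-fold for Gpm6a, but by 1.5-fold for Cldn15. Library 4 of this group was the highest of all 14 eWAT libraries for 6 of the 8 genes. Its macrophage, adipocyte and epididymis marker sums (862, 42345 and 16.5 CPM) lay within the ranges of its group, whereas its endothelial sum (509 CPM) and its skin and mammary epithelium sum (4.36 CPM) were the lowest of its group (532 to 772 and 7.44 to 22.4 CPM in the others). WT ND library 1 was among the 2 highest for 5 genes, and WT HFD library 1 was the lowest for 5, while having the highest Wt1 of its group (12.1 CPM). Of all 14 eWAT libraries, WT HFD library 1 had the highest macrophage and fibroblast and progenitor sums (6781 and 6070 CPM). Its adipocyte and endothelial sums (20829 and 358 CPM) were the lowest of the 14. The part of these in its values of the members was not tested. WT ND library 2, with the most epididymis transcripts, was neither the highest nor the lowest for any of the 8 genes.

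To describe this shared variation, each gene's log2 CPM was correlated over the 14 eWAT libraries with the mean of the other 7. Permutation p-values (100000 resamples, two-sided) were adjusted over these 8 correlations, and 6 of the 8 had an adjusted p under 0.05 for Pearson's r. The strongest were those of Upk3b (r = 0.96, rho = 0.93) and Lrrn4 (r = 0.95, rho = 0.98), whose permutation p-values of 1e-05 are the smallest that these resamples can give (adjusted p = 4e-05). Muc16 (r = 0.84, rho = 0.85), Msln (r = 0.83, rho = 0.81), Upk1b (r = 0.83, rho = 0.78) and Gpm6a (r = 0.79, rho = 0.70) followed, with permutation p-values of r from 0.00012 to 0.00077 (adjusted 0.00032 to 0.00103) and of rho from 0.0002 to 0.00749. Wt1 (r = 0.47, permutation p = 0.0878, adjusted 0.10; rho = 0.38, permutation p = 0.177) and Cldn15 (r = 0.39, permutation p = 0.173, adjusted 0.17; rho = 0.41, permutation p = 0.152) did not pass. The other genes were not put through this test, so the count of 6 has no share of all genes beside it. The gene ranked 175 of the 14928 others still had r = 0.67 with the mean of all 8 members.

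With the 2 libraries farthest from the median left out, r was 0.93 for Upk3b, 0.96 for Lrrn4, 0.82 for Muc16, and 0.66 to 0.68 for Msln, Upk1b and Gpm6a. It was 0.66 for Wt1 and 0.19 for Cldn15. After group means were subtracted, the 6 correlations remained between 0.76 and 0.95, so that they were also present among mice of the same genotype and diet. Their adjusted permutation p was 0.0022 or less. The permutations moved values across groups and made no allowance for the subtracted means, so these p-values are approximate and may be too small. Among the 21 pairs of genes without Cldn15 the median r was 0.80 (0.76 with group means subtracted). The pairs with Wt1 among these were the lowest, from 0.22 with Muc16 to 0.58 with Gpm6a (0.09 and 0.53 with group means subtracted). Among the 7 pairs with Cldn15 the median r was 0.34 (0.16 with group means subtracted) and the range 0.17 to 0.43. The ranges of the Wt1 and Cldn15 pairs thus overlapped.

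**Figure D4:**
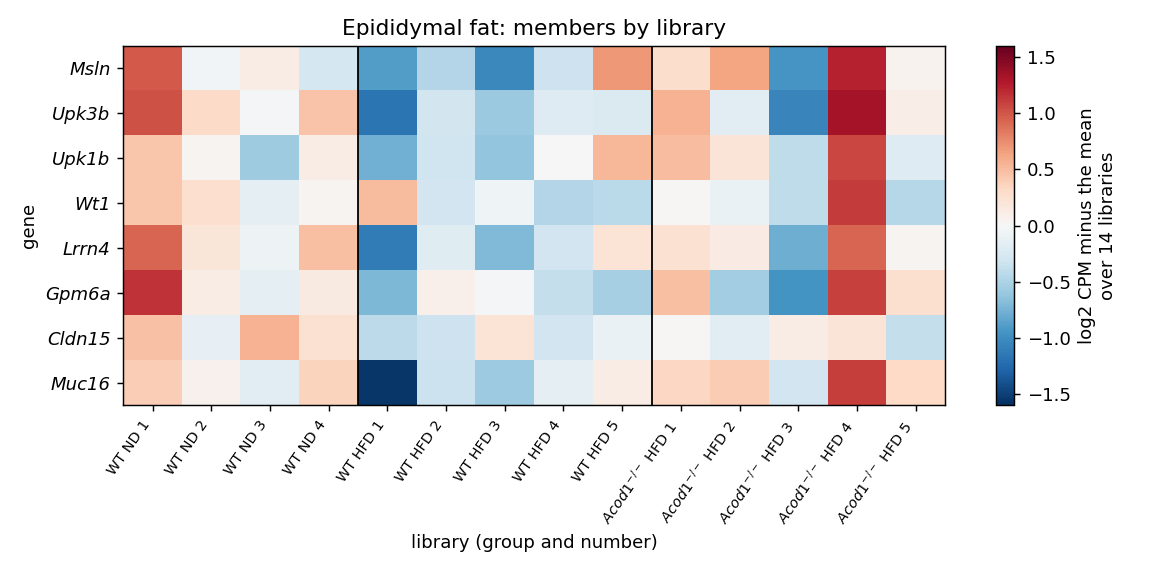
Log2 CPM of each gene minus its mean over the 14 eWAT libraries, with libraries ordered by group and number (color scale in log2 units, lines between groups). Acod1-/- HFD library 4 and WT ND library 1 are raised and WT HFD library 1 is lowered in most rows, and the Cldn15 row varies least.

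Among the 14928 other genes that passed the eWAT filter, Bnc1 had the highest correlation with the mean log2 CPM of the members over the 14 libraries (r = 0.90, or 0.86 with group means subtracted). Bnc1 encodes basonuclin, a zinc-finger protein of mesothelium and other epithelia. Next came Pvr, which encodes the poliovirus receptor CD155 (r = 0.89), and Nkain4, which encodes a protein that interacts with the sodium pump (r = 0.86). Miat, Ankrd42, Krt19, 4921507P07Rik, Ccdc30, Arhgap20 and Ccdc92 completed the 10 leading genes, with r from 0.84 to 0.81. Bnc1 averaged 3.05 CPM in eWAT and 0.00750 CPM in iWAT of ND-fed mice, and Nkain4 6.05 and 0.197 CPM. Pvr was present in both depots, with 45.9 CPM in eWAT and 29.8 CPM in iWAT on ND, and with 36.8 and 48.3 CPM in WT mice on HFD. These correlations describe 14 libraries that share groups and are given without a test.

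Another 16 genes known from mesothelium were listed, of which 14 passed the filter (Calb2 and Gata4 did not, and Calb2 had at most 1 read in any library). In ND-fed WT mice 12 of the 14 were called higher in eWAT than in iWAT and none lower, where 18.3% of all genes were called higher. Of the 14, 6 passed the filter through eWAT alone and had to differ, so that this count too is a description. The calls were led by Pkhd1l1 (log2 fold change 5.09 ± 0.60, SE, adjusted p = 3.70e-06 by edgeR), Bnc1 (a pooled ratio of 407, 95% counting interval 72.8 to 16109, adjusted p = 0.000153) and Pdpn (2.09 ± 0.38, adjusted p = 0.000421). In WT and in Acod1-/- mice on HFD 9 of the 14 were called higher in each and none lower (11.3% and 2.25% of all genes were called higher). With the same filter, these counts are descriptions as well. Pdpn encodes podoplanin, which fibroblasts and lymphatic endothelium also carry, and rose in iWAT on HFD (1.48 ± 0.37, adjusted p = 0.00853), the only call among the 8 of these genes tested there.

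In eWAT, 5 of the 14 were called lower and 2 higher in WT mice on HFD than on ND (median -0.51), a share near that of all genes (26.9% lower and 24.8% higher). The leading ones were the simple-epithelium keratins Krt8 (log2 fold change -3.72 ± 0.82, SE, adjusted p = 0.0035 by edgeR), Krt18 (-2.95 ± 0.89, adjusted p = 0.0176) and Krt19 (-1.52 ± 0.48, adjusted p = 0.0214). Krt8 had 31.2, 104, 2.73 and 28.4 CPM in the 4 ND libraries, with the highest value in the library richest in epididymis transcripts, and 1.18 to 7.82 CPM on HFD. Krt19 had 15.5, 15.8, 5.59 and 15.5 CPM on ND, with no such peak. In the comparison of Acod1-/- with WT mice on HFD none of the 14 was called (1 at an unadjusted p under 0.05 by edgeR). Nkain4 came nearest (0.88 ± 0.38, adjusted p = 0.138). Against ND-fed WT mice, 2 were called lower in Acod1-/- mice, Krt8 and Krt18 (adjusted p = 0.0301 and 0.0624).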

How the data were processed

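RNA of 25 mouse fat libraries was analysed from 1 deposited table per library. According to the methods and labels, directional mRNA libraries were sequenced, trimmed with cutadapt and aligned with STAR to the mouse genome (mm10, GRCm38). The counting program and its strand setting are not given in the sources used here. The deposited count column holds uniquely mapped reads per Ensembl gene, and the authors' FPKM columns follow from counts and cDNA length to within 0.0005. Rows that name no gene (no feature, 6.41% to 11.9% of reads; ambiguous, 1.52% to 2.07%) were left out. Symbols matched 54723 of 54752 IDs.

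The 8 members and all lists were chosen with earlier results of these data known. Counts were tested with edgeR 4.0.16 (R 4.3.3; quasi-likelihood, TMM, genes averaging 1 CPM or more in the depot, Benjamini-Hochberg over all genes, called at adjusted p under 0.1), within each depot and, between depots, over all 25 libraries. The printed CPM use TMM over all libraries, with 3 exceptions. The epididymis sums given with the library depths, the pooled CPM behind the depot ratios, and the floor use the plain total of reads counted in genes. Intervals are 95%. The study's figure legends give as many mice per group as there are libraries, although the labels do not say that replicates are separate mice. The p-values measure the spread between these libraries. Counting intervals (exact binomial) and the floor of 3 counts cover counting error only. The members, 16 other mesothelial genes (the 3 of smallest adjusted p named per comparison), the other uroplakins, and the 10 genes most correlated with the members were named by rule, with promoters for up to 4 members of highest eWAT FPKM. Scripts were tested on simulated data. Alternatives used DESeq2 1.42.0, no filter, another threshold, the library number range, a replicate block, other sets of samples, each library left out, and, chosen after seeing the data, the libraries with over 100 CPM of epididymis genes left out.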

Additional observations from a re-analysis of the deposited data

Results flagged for a closer look

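Among 26 groups of 4 or 5 libraries tested for a value far from the others, with chance flagging about 1 in 20, 2 held a library whose gap to its nearest neighbour exceeded Dixon's 95% limit. Msln had 24.9 CPM in eWAT WT HFD library 5, against 7.51 to 12.3 CPM in the other 4 (gap over range 0.722). Wt1 had 18.3 CPM in eWAT Acod1-/- HFD library 4, against 6.14 to 8.38 CPM in the other 4 (gap over range 0.816).

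The diet response of 2 genes differed between the depots by the interaction test (edgeR). For Cldn15 the difference (eWAT response minus iWAT response) was -1.46 on the log2 scale. For Muc16 it was 3.75 (adjusted p = 0.0531), and it rested on the 23 reads of iWAT WT ND library 2, as the other 10 iWAT libraries held 1 read in all. Without that library the fitted value was -1.99 (adjusted p = 0.56).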

How the results depend on the processing

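The depot counts (8, 8 and 7 members called on ND, in WT on HFD and in Acod1-/- on HFD) stayed within 6 to 8 under every alternative run. For the alternatives the share of all genes called was not counted, so their counts have no background beside them. With each library left out in turn, they ranged from 7 to 8, stayed at 8, and ranged from 6 to 7. In eWAT the diet count of 3 fell to 1 at an adjusted p under 0.05, with the library number range as a term, and in the fit of all 25 libraries, and ranged from 1 to 4 with each library left out. The genotype count of 0 became 2 with DESeq2's Wald test, 2 within the first range of library numbers and 1 without the libraries rich in epididymis transcripts, and ranged from 0 to 2 with each library left out (2 without WT HFD 5 or Acod1-/- HFD 3, and 1 without Acod1-/- HFD 5). The eWAT count of Acod1-/- HFD against WT ND ranged from 0 to 1, with 1 (Cldn15, lower) without WT ND 2. In iWAT the WT diet count of 2 was 1 with the range as a term and 4 in the fit of all 25 libraries, which tests all 8 genes, and ranged from 1 to 2 with each library left out. The iWAT count of Acod1-/- HFD against WT ND was 4 in that fit. The diet by depot count of 2 was 1 at an adjusted p under 0.05 and 1 without the libraries rich in epididymis transcripts, and ranged from 1 to 3 with each library left out. The count of 6 correlated members ranged from 6 to 7. With the number in the label as a replicate block, the iWAT diet count was 1, the diet by depot count was 1, and no other count moved by more than 1.5 times. Whether same-numbered libraries of both depots came from the same mouse is not given, and the main tests left them unpaired. Between the depots, deviations from group means of same-numbered libraries correlated at 0.041 to 0.192 on ND (other pairs -0.196 to 0.024). In WT mice on HFD they correlated at -0.075 to 0.527 (other pairs -0.359 to 0.249). In Acod1-/- mice the correlations were -0.06 to 0.096 (other pairs -0.314 to 0.289). Without Acod1-/- HFD 4 the eWAT genotype value of Wt1 turned from 0.27 to -0.12 (adjusted p = 0.78), and without iWAT WT ND 2 the diet by depot value of Muc16 turned to -1.99. With each library left out these values ranged from -0.12 to 0.47 for Wt1 and from -1.99 to 5.15 for Muc16. The cause of these moves was not tested, apart from the added genes in the fit of all 25 libraries. Msln, Upk3b, Upk1b, Wt1 and Muc16 had 3 reads or fewer (a floor of 0.0573 to 0.0955 CPM) in most iWAT libraries, so that their values there rest on few reads.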
